A study of Homo sapiens with 16 samples.

Results

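The multiple myeloma lines RPMI-8226 and MM.1S were compared for how their RNA changed with UNC0638, an inhibitor of the histone methyltransferase G9a. The comparison used 8 of the 16 arrays of the series, 2 biological replicates in each of 4 groups. The groups were RPMI-8226 with the solvent DMSO, RPMI-8226 with UNC0638 at 1 μM, MM.1S with DMSO, and MM.1S with UNC0638 at 1 μM, each for 6 days. The other 8 arrays held cells of both lines given GSK126, an inhibitor of the methyltransferase EZH2, or GSK126 + UNC0638 (1 μM of each). They served as a second set of arrays for a related question, the change when UNC0638 is added to GSK126. All groups were grown in the same serum-supplemented medium. Both are long-established lines grown from patients with myeloma, and each stands for 1 tumor, so a difference between them is a difference between these 2 lines. The quantity reported is the line difference, the log2 change with UNC0638 in RPMI-8226 minus the log2 change in MM.1S.

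G9a, encoded by EHMT2, works with its partner GLP, encoded by EHMT1, to place mono- and dimethyl groups on lysine 9 of histone H3, a mark of silent genes in euchromatin. UNC0638 competes with the histone for the enzyme's substrate pocket, so the mark is lost as cells divide while the enzyme itself remains. Genes that were held silent by the mark can then be transcribed, and which genes those are depends on where a cell type carries it. Repeat elements and interferon-stimulated genes are among the loci known to respond to loss of this mark in tumor cells.

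The arrays were 1-color expression arrays with 50599 probes, of which 25827 were kept because some group had both of its arrays well above background. Of the probes kept, 20511 met this in both lines, 1632 in RPMI-8226 only and 3684 in MM.1S only. A level is a log2 intensity scaled to its array, with the array's 75th percentile subtracted, so a level of 0 is as bright as that percentile and a level near −6 or −7 is at the dim end of the scale. The 75th percentile of intensity was 298.5 to 348.6 on the RPMI-8226 arrays and 431 to 477 on the MM.1S arrays, and no spot was saturated. All 8 plasma cell markers (SDC1, CD38, TNFRSF17, XBP1, PRDM1, IRF4, MZB1 and SLAMF7) were well above background on both arrays of all 4 groups. The replicates of RPMI-8226 with DMSO differed more from each other than those of the other groups did, with a median absolute log2 difference of 0.256 against 0.13 to 0.158. All RPMI-8226 arrays lay on one slide and all MM.1S arrays on another, so levels of the lines cannot be told apart from slides, while each change with UNC0638 was measured within a slide. The number of arrays, 2 per group, limits the precision of every value below.

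With limma, the line difference passed the test for 389 of 25827 probes, or 1.51% (Benjamini-Hochberg adjusted p below 0.05). The change in RPMI-8226 was above that in MM.1S for 131 probes (0.507%) and below it for 258 (0.999%). At an unadjusted p below 0.05 there were 5012 probes, and 382 of the 389 differed by at least 1 on the log2 scale. Counted by gene with 1 probe each, 313 of 19298 genes were called (1.62%), 112 of them above (0.58%) and 201 below (1.04%). More probes also passed the test within MM.1S than within RPMI-8226. In MM.1S, 1496 probes rose (5.79%) and 1908 fell (7.39%), whereas in RPMI-8226 193 rose (0.747%) and 86 fell (0.333%). By gene, 6.11% rose and 7.69% fell in MM.1S, and 0.834% rose and 0.332% fell in RPMI-8226, the shares against which counts within a list of genes are read. Across the probes measured in both lines, the changes of the lines were correlated at r = 0.372, a description over probes that share arrays and are not independent. In bulk RNA, a change in the share of cells that carry an RNA and a change in RNA per cell cannot be told apart. The count of 389 rests on few arrays. With the replicate number of each line as a block it was 184, of which 126 were among the 389, and with 1 array left out it ranged from 112 (without RPMI-8226 UNC0638 replicate 1) to 1109 (without RPMI-8226 DMSO replicate 1).

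**Figure D1:**
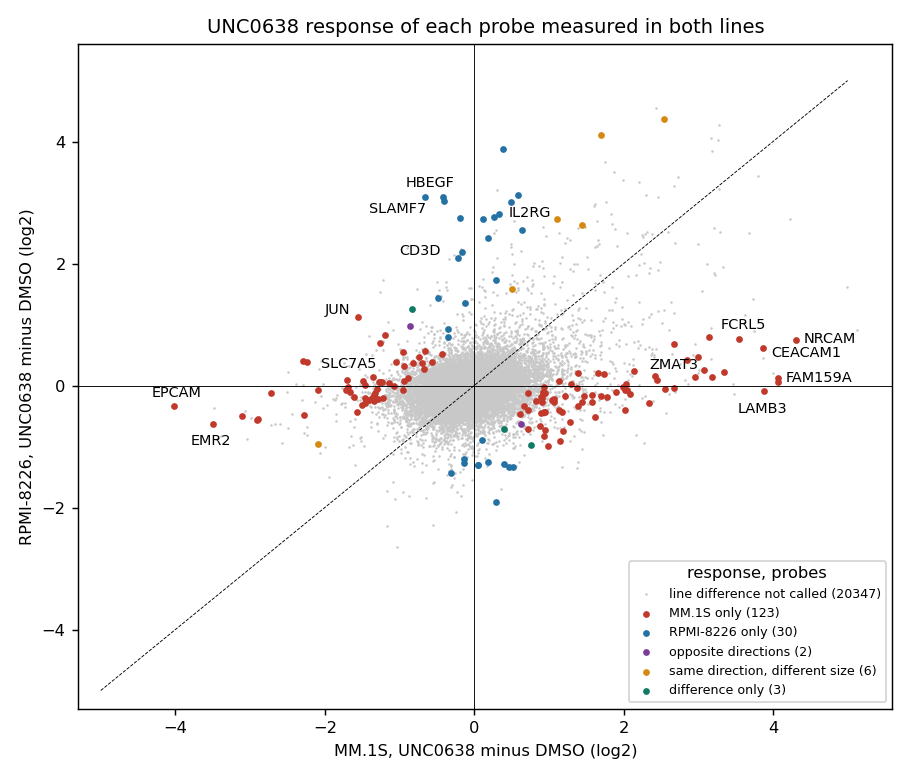
Each point is 1 of the 20511 probes measured in both lines, placed by its log2 change with UNC0638 in MM.1S (horizontal axis) and in RPMI-8226 (vertical axis), with the 164 of them called for the line difference in color by class of response and named examples labelled. Most called points lie nearer to an axis than to the dashed line of equal change, with LAMB3, CEACAM1 and EPCAM far out along the MM.1S axis and IL2RG and SLAMF7 along the RPMI-8226 axis.

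The 389 probes were sorted by whether each line's own change passed the test. A change in MM.1S with none called in RPMI-8226 was found for 292 probes (1.13% of those tested), of which 226 rose and 66 fell. This balance depended on the setting, with 356 rising and 493 falling under an intensity-dependent prior variance and 64 rising and 61 falling among probes above background on all 8 arrays. The reverse, a change called in RPMI-8226 and not in MM.1S, was found for 75 probes (0.29%), 53 rising and 22 falling. Opposite changes were called for 8 probes, changes in the same direction but of different size for 10, and for 4 probes the difference passed while neither line's change did. Many of these probes were dim in one line. Of the 292, 157 were well above background in MM.1S only and 123 in both lines. Of the 75, 34 were well above background in RPMI-8226 only and 30 in both. Among the 123 probes measured in both lines, 70 rose and 53 fell in MM.1S, and the median size of the RPMI-8226 change was 0.228 on the log2 scale. A change not called in a line is not shown to be absent there. Rather, these probes are ones whose 2 changes were unequal.

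**Figure D2:**
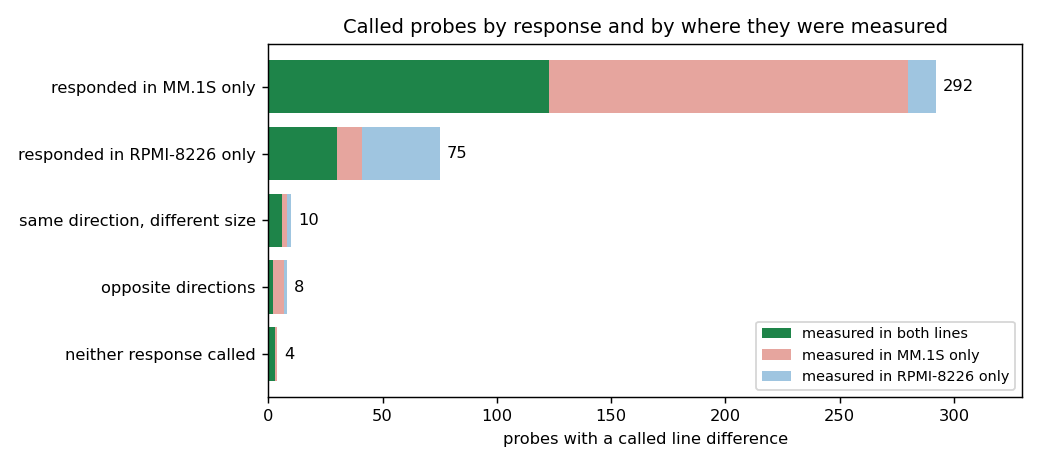
Bars give the number of called probes in each class of response, split by the lines in which the probe was measured. The class of probes called in MM.1S only holds 292 of the 389, and 157 of those were above background in MM.1S alone.

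Some interferon-stimulated genes rose in MM.1S with a line difference that passed the test. Type I interferon signals through JAK kinases to a transcription factor complex that holds IRF9 and binds the interferon-stimulated response element (ISRE) in front of its target genes. Of 66 listed genes of this response that were kept, 9 were called for the line difference and all 9 were below 0 (13.6%, against 1.04% of all genes tested). Within MM.1S, 25 of the 66 rose and none fell, against 6.11% and 7.69% of all genes. None of the 66 changed by the test in RPMI-8226, where few genes of any kind did (0.834% rising and 0.332% falling). The list's median line difference was −0.39, the median of all genes was 0.05, and 56 of the 66 differences were below 0. The study itself followed interferon genes on these samples, so the direction of the list is not independent evidence. The called genes were the effectors RSAD2, TRIM22, CMPK2, IFITM1, IFITM3 and EPSTI1, the partners PARP9 and DTX3L, and the feedback inhibitor USP18.

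Promoters are shown for the called members of the list with an ISRE match, for DDX60 and DDX60L, and for ISG15. The match is the sequence feature through which such genes are known to respond. IFIT1 (2 matches), IFI6 (3) and OAS3 (2), which were not called, held the match as well and are not shown. The search used the letters GAAANNGAA on both strands over the 250 bases before each RefSeq start (GRCh38.p14). Each line below runs 5′ to 3′ on the gene's strand and ends at the annotated start, with the match in capitals. RSAD2, EPSTI1, IFITM1 and IFITM3 were called, DDX60 and DDX60L were called and stand outside the list, and ISG15 was not called (adjusted p = 0.0556).
RSAD2 (chr2:6865795-6865884, plus strand): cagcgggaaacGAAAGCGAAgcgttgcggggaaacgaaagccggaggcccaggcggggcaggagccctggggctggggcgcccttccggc
EPSTI1 (chr13:42992242-42992301, minus strand): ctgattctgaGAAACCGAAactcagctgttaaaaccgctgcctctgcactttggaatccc
IFITM1 (chr11:313990-314039, plus strand): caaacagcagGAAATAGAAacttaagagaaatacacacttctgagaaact
IFITM3 (chr11:320861-320930, minus strand): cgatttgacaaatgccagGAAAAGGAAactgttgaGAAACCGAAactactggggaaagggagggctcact
DDX60 (chr4:168318753-168318852, minus strand): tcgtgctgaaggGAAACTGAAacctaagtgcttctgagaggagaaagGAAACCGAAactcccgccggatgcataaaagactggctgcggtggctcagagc
DDX60L (chr4:168480493-168480582, minus strand): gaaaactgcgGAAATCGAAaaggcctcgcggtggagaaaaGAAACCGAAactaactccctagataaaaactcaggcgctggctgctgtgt
ISG15 (chr1:1013367-1013496, plus strand): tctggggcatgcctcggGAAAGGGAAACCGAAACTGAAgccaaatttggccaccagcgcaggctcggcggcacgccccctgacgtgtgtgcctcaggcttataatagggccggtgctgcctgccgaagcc

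The match was found in 1927 of 27305 promoters of the RefSeq table (7.06%), in 5.65% of those of all genes tested, and in 23 of the 50 interferon list promoters present (46%). Within the list it was in 4 of the 7 promoters of called genes (57.14%) and in 19 of the 43 of uncalled genes (44.19%), and CMPK2, DTX3L and PARP9 had no match in this window. Overlapping matches, as in ISG15, were counted once per promoter. Of the promoters of all genes that rose in MM.1S only, 9 of 131 held the match (6.87%). A match is a run of letters and not a measured binding site.

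RSAD2, encoding the antiviral enzyme viperin, had levels of −6.36 and −6.16 in RPMI-8226 with DMSO and −5.49 and −5.91 with UNC0638, all 4 not well above background. In MM.1S it went from −6.82 and −6.75 with DMSO to −2.64 and −2.15 with UNC0638, a rise of at least 5.23-fold from a level not well above background. The line difference of RSAD2 was −3.82 ± 0.31 (SE, limma adjusted p = 0.0072). The MM.1S groups did not overlap, and the RPMI-8226 arrays stayed at the dim end. TRIM22, an antiviral E3 ligase, behaved likewise, with MM.1S levels of −7.04 and −6.37 becoming −3.44 and −3.19 (at least 2.77-fold) and RPMI-8226 not well above background throughout (line difference −3.22 ± 0.45, adjusted p = 0.0351). CMPK2, a mitochondrial nucleotide kinase, was measured in MM.1S on all 4 arrays, at −3.94 and −4.41 before and −1.76 and −1.55 with UNC0638, a 5.74-fold rise. In these 3 genes RPMI-8226 carried no signal well above background with or without UNC0638, so the comparison there is between a rise and a probe that stayed dim.

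PARP9, an ADP-ribosyltransferase partner of the ubiquitin ligase DTX3L, was measured in RPMI-8226 in both treatments. Its RPMI-8226 levels were −1.80 and −2.39 with DMSO and −1.54 and −1.81 with UNC0638, and its MM.1S levels rose from −4.999 and −5.07 to −2.07 and −2.30, at least 6.07-fold (line difference −2.43 ± 0.31, adjusted p = 0.0269). With UNC0638 the MM.1S arrays thus reached the neighborhood of the RPMI-8226 arrays. DTX3L showed the same arrangement, at −0.53 and −0.58 before and −0.31 and −0.43 after in RPMI-8226, and at −2.21 and −2.57 before and −0.72 and −0.57 after in MM.1S (line difference −1.56 ± 0.21, adjusted p = 0.032). EPSTI1, an interferon-induced protein of epithelial and stromal cells, had RPMI-8226 levels of −1.47 and −1.22 with DMSO and −1.40 and −1.36 with UNC0638. It rose in MM.1S from −3.87 and −3.98 to −2.46 and −2.64 (line difference −1.41 ± 0.19, adjusted p = 0.0299). USP18, which removes ISG15 from proteins and dampens the interferon receptor, rose in MM.1S from −3.68 and −3.89 to −2.30 and −2.20 and was dim on all RPMI-8226 arrays (line difference −1.64 ± 0.19, adjusted p = 0.02).

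IFITM1 and IFITM3, membrane proteins that block virus entry, differed in starting level. IFITM1 stood at 5.67 and 5.81 in RPMI-8226 with DMSO and 4.85 and 4.97 with UNC0638, a change of −0.83 that did not pass (adjusted p = 0.102), and at −0.27 and −0.12 rising to 0.51 and 0.95 in MM.1S (line difference −1.76 ± 0.24, adjusted p = 0.032). IFITM3 went from 4.12 and 4.21 to 3.40 and 3.48 in RPMI-8226 and from −0.85 and −0.97 to −0.17 and 0.24 in MM.1S (line difference −1.68 ± 0.22, adjusted p = 0.0299). In both genes the treated RPMI-8226 arrays lay below the untreated ones and the treated MM.1S arrays above, without overlap.

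Several widely used interferon genes missed the threshold for the difference. IFIT1, an RNA-binding effector, rose in MM.1S from −4.44 and −3.54 to −1.14 and −0.83 while RPMI-8226 stood at −1.85 and −1.23 before and −1.48 and −1.11 after (line difference −2.76 ± 0.50, adjusted p = 0.0675). ISG15, the ubiquitin-like modifier, had a line difference of −1.30 ± 0.22 with 1.01 in MM.1S and −0.28 in RPMI-8226 (adjusted p = 0.0556), and IFIT3 had −1.78 ± 0.32 (adjusted p = 0.0644). IRF9 rose by 1.13 in MM.1S, and its line difference of −0.87 ± 0.21 did not pass (adjusted p = 0.115). The antiviral synthetase gene OAS3 (line difference −0.26 ± 0.81) and IFI6 (−0.33 ± 0.36) were far from the threshold (adjusted p = 0.892 and 0.666). The receptor and signaling genes, RNA and DNA sensors and OAS and RNase L genes held no called member among 23, where 1.62% of all genes were called. Their differences were below 0 for 7 of 9 receptor and signaling genes, 8 of 9 sensors and 3 of 5 OAS and RNase L genes. DDX60 and its neighbor DDX60L on chromosome 4, helicases of the antiviral response, rose in MM.1S by at least 4.67-fold and 5.20-fold and were not well above background in RPMI-8226 (line differences −4.44 ± 0.23 and −4.13 ± 0.49, adjusted p = 0.00239 and 0.0224). Under the replicate block within each line the calls of RSAD2, TRIM22, PARP9 and DDX60 were kept. Those of CMPK2 (adjusted p = 0.0637) and DDX60L (0.0662) were lost, and 5 members of the list were called in all. TRIM22 lost its call with quantile normalization (0.0808) and no filter on dim probes (0.0762). PARP9 lost it with no filter (0.0661) and RSAD2 with all 16 arrays in 1 fit (0.0823). With 1 array left out, the list's median line difference ranged from −0.66 to −0.38.

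Other called genes that rose in MM.1S included LAMB3, CEACAM1, NRCAM and CX3CR1. LAMB3 (probe at chr1:209788356-209788415, minus strand, GRCh37), the β3 chain of a basement membrane laminin, was at 4.42 and 4.90 in RPMI-8226 with DMSO and at 4.54 and 4.60 with UNC0638. In MM.1S it went from −1.77 and −1.99 to 2.08 and 1.92, a 14.7-fold rise. The line difference of LAMB3 was −3.97 ± 0.26 (adjusted p = 0.00436), with no overlap in MM.1S and treated arrays inside the untreated range in RPMI-8226. CEACAM1 (chr19:43011504-43011563, minus strand), a cell adhesion receptor with inhibitory signaling, was low in both lines at the start, at −3.79 and −4.30 in RPMI-8226, with 1 of the 2 arrays well above background, and at −2.41 and −2.69 in MM.1S. With UNC0638 it stood at −3.29 and −3.56 in RPMI-8226 and at 1.15 and 1.47 in MM.1S, a 14.5-fold rise there (line difference −3.24 ± 0.32, adjusted p = 0.0129). A second CEACAM1 probe gave a smaller difference of −1.04 in the same direction that was not called.

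NRCAM, a neuronal cell adhesion protein, rose at least 5.49-fold in MM.1S, from −6.70 and −6.58 to −2.41 and −2.24, while RPMI-8226 went from 2.76 and 2.54 to 3.37 and 3.42 (line difference −3.57 ± 0.18, adjusted p = 0.00239). A second NRCAM probe gave −0.84 and was not called, and with normexp background correction the NRCAM difference was −0.28 (adjusted p = 0.44). CX3CR1, the receptor of fractalkine, was bright in RPMI-8226 at 6.60 and 6.93 with DMSO and 6.79 and 6.998 with UNC0638, and in MM.1S it rose at least 6.63-fold from −5.47 and −5.02 to −2.27 and −1.84 (line difference −3.06 ± 0.33, adjusted p = 0.0165). By these probes both genes were expressed in RPMI-8226 before treatment and still far lower in treated MM.1S. FAM159A (current symbol SHISAL2A) showed the same pattern, at 1.995 and 2.61 before and 2.20 and 2.52 after in RPMI-8226 and at −4.97 on both arrays before and −1.10 and −0.70 after in MM.1S, at least 14.8-fold (line difference −4.02 ± 0.35, adjusted p = 0.0089), and its second probe gave −1.26 and was not called. S100A6, a calcium-binding protein, stood between 6.17 and 6.49 on the 4 RPMI-8226 arrays and rose at least 5.85-fold in MM.1S from −4.75 and −4.71 to −2.57 and −1.79 (line difference −2.60 ± 0.37, adjusted p = 0.0363). FCGBP, a mucin-like secreted protein, and BMPR2, a receptor of bone morphogenetic proteins, rose at least 4.43-fold and 2.53-fold in MM.1S, with line differences of −2.82 ± 0.44 and −2.81 ± 0.32 (adjusted p = 0.0476 and 0.0199). FAM159A, NRCAM, CX3CR1, S100A6, FCGBP and BMPR2 were among the called genes measured in both lines, although their MM.1S level with DMSO was only a bound.

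FCRL5 (chr1:157483238-157483297, minus strand), an Fc receptor-like protein of B cells and plasma cells, was at −3.55 and −3.68 in MM.1S with DMSO and −0.31 and 0.19 with UNC0638, an 11.7-fold rise. Its RPMI-8226 levels were −4.11 and −4.88 before, with 1 of 2 well above background, and −3.77 and −3.68 after, the line difference was −2.78 ± 0.40 (adjusted p = 0.0388), and the 3 other FCRL5 probes were called as well, at −4.97 to −3.40. The FCRL5 call was lost with the replicate block within each line (adjusted p = 0.0851) or over both lines (0.0707), with quantile normalization (0.0547), with no filter on dim probes (0.0831) and without any 1 of 6 arrays, those other than RPMI-8226 with DMSO. Of the 10 kept Fc receptor and FCRL genes, FCRL5 alone was called, which is 1 gene against 1.62% of all genes. Within the lines, 9 of the 10 rose in MM.1S (6.11% of all genes) and 1 in RPMI-8226 (0.834%). The median line difference of this list was −1.56, against 0.05 over all genes, with medians of 3.14 in MM.1S and 0.84 in RPMI-8226. FCGR2B, the inhibitory IgG receptor, came close at −3.31 ± 0.55 (adjusted p = 0.0559), and FCRL2 and FCRL3 had larger standard errors (−4.21 ± 1.18 and −3.51 ± 0.60, adjusted p = 0.147 and 0.0584). FCGR2A and FCGR2C moved in RPMI-8226 as far as in MM.1S, by 2.15 against 2.23 and 3.43 against 3.80, and only the first of these 4 changes did not pass (adjusted p = 0.0523). The FCGR2 genes are near-identical copies, and their probes may share targets. Without 1 array the list's median stayed between −1.78 and −1.21, and normexp background correction moved it to −0.63.

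HLA-DOB, a chain of the HLA-DO protein that tunes peptide loading on MHC class II, rose 4.13-fold in MM.1S from 1.01 and 1.00 to 3.06 and 3.05. In RPMI-8226 it was at −0.95 and −0.78 before and −0.82 and −1.05 after (line difference −2.11 ± 0.17, adjusted p = 0.00763). It was the 1 called gene of 11 MHC class II genes (9.09%, against 1.62% of all genes), and the list had no stable direction, since its median of −0.21 ranged from −1.59 to 0.88 with 1 array left out. HLA-DRA, the α chain of HLA-DR, stood at −5.07 and −1.50 on the untreated RPMI-8226 arrays, far apart for replicates. TRAF1, an adaptor of TNF receptor signaling, rose 4.07-fold in MM.1S from −2.90 and −3.16 to −1.14 and −0.87 and stood at 0.49 and 0.35 before and 0.44 and 0.26 after in RPMI-8226 (line difference −2.10 ± 0.22, adjusted p = 0.0157). CD40, a B cell costimulatory receptor of the TNF receptor family, rose 5.22-fold in MM.1S and was not well above background in RPMI-8226 (−2.66 ± 0.42, adjusted p = 0.0471). ICAM1, an adhesion molecule, had a line difference of −1.55 ± 0.23 (adjusted p = 0.0416), with 0.89 in MM.1S and −0.66 in RPMI-8226. These 3 and, above 0, CCL3 and IL2RG were the 5 called of 23 genes listed for the NF-κB pathway (21.7%, against 1.62% of all genes). The list includes IL2RG, a chain of interleukin receptors. It was chosen with earlier results of these data known, so its share is a description and not independent evidence. With the replicate block within each line 1 of the 23 was called, and with 1 array left out between 1 and 8.

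**Figure D3:**
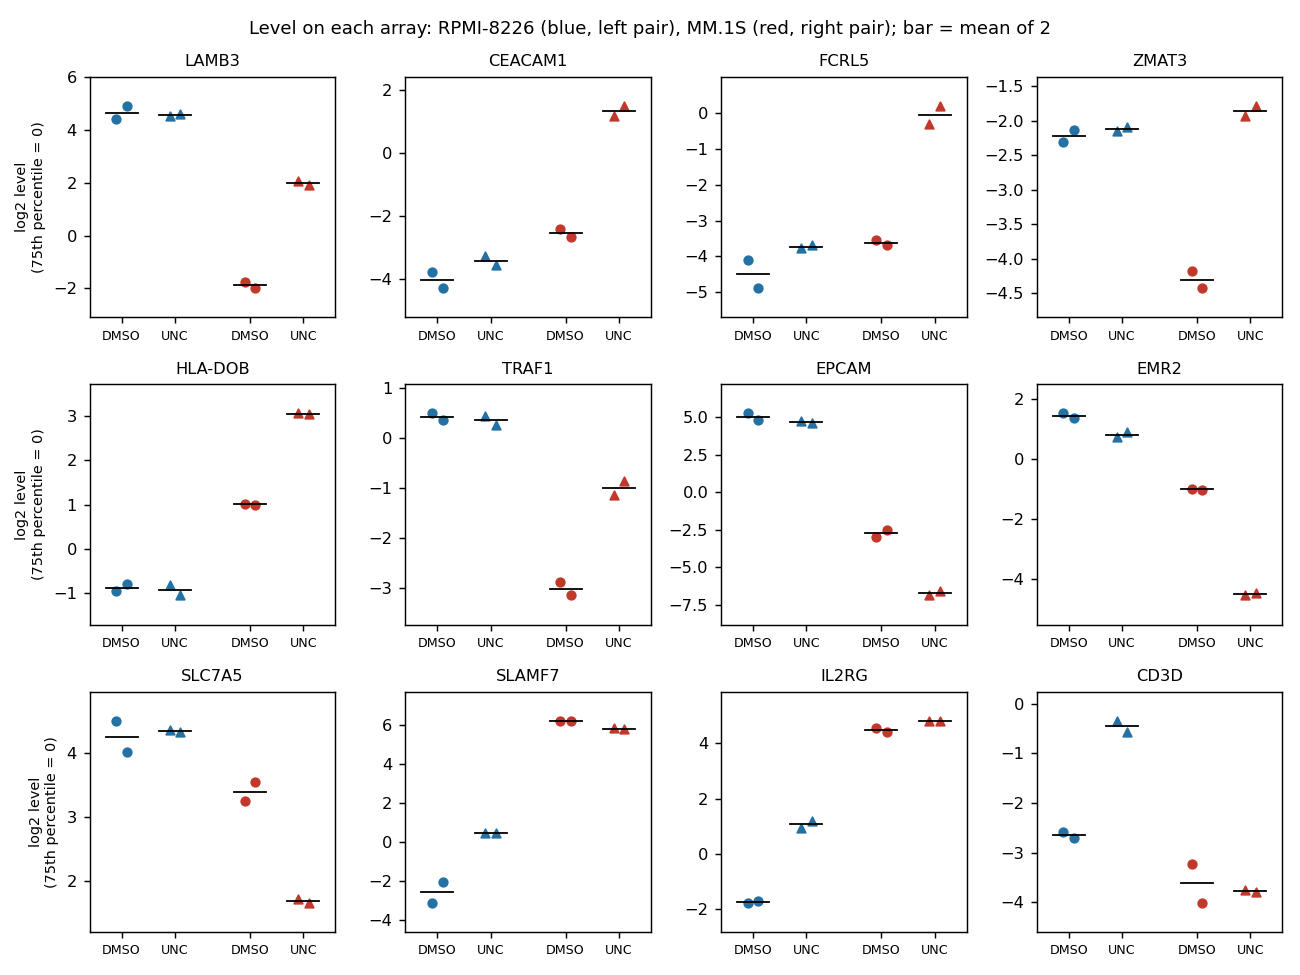
Levels on each of the 8 arrays (log2 intensity minus the array's 75th percentile) for 12 genes, with DMSO and UNC0638 arrays of RPMI-8226 and MM.1S as separate points; the vertical axes differ between panels. The 2 arrays of a group lie close together relative to the step seen in 1 line, as for LAMB3 in MM.1S (−1.77 and −1.99 to 2.08 and 1.92) and IL2RG in RPMI-8226 (−1.79 and −1.72 to 0.94 and 1.18).

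ZMAT3, an RNA-binding p53 target, rose 5.46-fold in MM.1S from −4.18 and −4.43 to −1.92 and −1.79, with RPMI-8226 at −2.30 and −2.13 before and −2.15 and −2.08 after (line difference −2.35 ± 0.19, adjusted p = 0.00717). It was the 1 called gene of 19 p53 targets (5.26%, against 1.62% of all genes). Of the 19, 3 rose in MM.1S (6.11% of all genes) and none in RPMI-8226 (0.834%). The list's median difference was −0.35, while MDM2, a classical p53 target, moved by 0.32 and 0.30 in the 2 lines. GRB10, an imprinted adaptor of insulin signaling, rose 4.02-fold in MM.1S and was not well above background in RPMI-8226 (−2.11 ± 0.21, adjusted p = 0.0137). CXCL13 and its receptor CXCR5, which guide B cells to follicles, gave −2.38 ± 0.35 and −1.56 ± 0.22 (adjusted p = 0.0395 and 0.038), CXCL13 rising at least 1.39-fold and CXCR5 2.44-fold in MM.1S, with RPMI-8226 dim throughout. CXCL13 and CXCR5 lost the call with a replicate block over both lines (adjusted p = 0.0648 and 0.0696). The same held with an intensity-dependent prior variance (0.0654 and 0.0984). With CCL3, described below, they were the 3 called of 19 listed chemokine and receptor genes (15.8%, against 1.62% of all genes). That list does not hold CX3CR1. GRB10 was the 1 called of 14 imprinted genes (7.14%, against the same share). CFTR, the chloride channel mutated in cystic fibrosis, and KIF6, a kinesin, were dim in RPMI-8226 and in untreated MM.1S and rose there at least 9.96-fold and 6.78-fold (line differences −5.26 ± 0.21 and −4.48 ± 0.41, adjusted p = 0.00208 and 0.0105).

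Among probes measured in both lines, those that rose in MM.1S only tended to be higher in RPMI-8226 with DMSO. Of the 226 probes that rose in MM.1S only, 149 were well above background in MM.1S only and are outside these counts. For the rest, the filter required RPMI-8226 signal well above background, whereas the MM.1S level with DMSO could be dim. The filter therefore favors a higher DMSO level in RPMI-8226. Of the 70 probes measured in both lines that rose in MM.1S only, 57 had the higher DMSO level in RPMI-8226. Among all probes measured in both, 10560 of 20511 had it. The median gap of RPMI-8226 over MM.1S was 2.96 with DMSO and 1.17 with UNC0638, and the gap was smaller with UNC0638 in 56 of the 70. The higher DMSO level in RPMI-8226 was not particular to the rising probes. Of the 53 measured in both lines that fell in MM.1S only, 38 had it as well. Their median gap was 1.08 with DMSO and 2.57 with UNC0638. Of the 19 probes that rose in RPMI-8226 only, 14 had the lower DMSO level in RPMI-8226. These counts use the DMSO arrays that also enter the line difference, so they describe the probes and are given with no test, and the gap between the lines cannot be told apart from the slide.

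The genes that fell in MM.1S only included EPCAM, EMR2, ACTL8, FAM167A and JUN. EPCAM (chr2:47613894-47613953, plus strand), an epithelial adhesion protein, went from −2.97 and −2.49 to −6.88 and −6.62 in MM.1S, at least 4.20-fold lower, and was no longer well above background. In RPMI-8226 it was bright on all 4 arrays, at 5.26 and 4.80 before and 4.76 and 4.61 after (line difference 3.68 ± 0.32, adjusted p = 0.00924). EMR2 (current symbol ADGRE2; chr19:14843858-14843917, minus strand), an adhesion G protein-coupled receptor, fell 11.3-fold in MM.1S from −0.98 and −1.02 to −4.54 and −4.45, where 1 of the 2 treated arrays was well above background. The RPMI-8226 levels of EMR2 were 1.53 and 1.38 before and 0.74 and 0.91 after, a change of −0.63 that did not pass (line difference 2.87 ± 0.16, adjusted p = 0.00246). ACTL8, an actin-like cancer-testis gene, fell 4.72-fold in MM.1S from 0.01 and −0.57 to −2.33 and −2.71 and stood at 5.83 and 5.16 before and 5.97 and 5.80 after in RPMI-8226 (2.62 ± 0.42, adjusted p = 0.0495). FAM167A fell at least 1.39-fold in MM.1S, where it left the measured range, and held between 0.91 and 1.20 in RPMI-8226 (2.59 ± 0.21, adjusted p = 0.00763). JUN, the AP-1 transcription factor, fell 2.93-fold in MM.1S from 0.68 and 0.50 to −0.88 and −1.04, while its RPMI-8226 arrays went from −0.76 and −1.40 to 0.14 and −0.06, a change of 1.12 that did not pass (line difference 2.67 ± 0.31, adjusted p = 0.0219).

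MYC and most listed genes of the ATF4 response fell in MM.1S. MYC, the growth-promoting transcription factor, fell 2.21-fold in MM.1S, from 5.80 and 5.59 to 4.66 and 4.43, and was at 6.90 and 6.87 before and 6.91 and 6.95 after in RPMI-8226. Its line difference of 1.19 ± 0.18 passed (adjusted p = 0.0426), and a second MYC probe gave 0.39 and was not called. The MYC call was lost with quantile normalization (adjusted p = 0.0592), the percentile over detected probes (0.0546) and no filter on dim probes (0.103). It was also lost with the replicate block within each line (0.0688) or over both lines (0.0564). On the second set of arrays the MYC difference was 1.07 ± 0.26 (adjusted p = 0.128). Of 14 genes of the MYC and IRF4 axis, MYC was the 1 called (7.14%, against 1.62% of all genes). In MM.1S 3 of the 14 fell and 1 rose, where 7.69% of all genes fell and 6.11% rose. IRF4, a transcription factor on which myeloma cells depend, fell by 0.70 in MM.1S, with a line difference of 0.28 ± 0.23 that did not pass (adjusted p = 0.555).

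ATF4 is the factor that switches on amino acid transport and synthesis when amino acids run short. Of 47 kept genes of this response, 33 fell and 1 rose in MM.1S, where 7.69% of all genes fell and 6.11% rose. In RPMI-8226 1 of the 47 fell, where 0.332% of all genes did. The median line difference was 0.81, with medians of −1.03 in MM.1S and −0.20 in RPMI-8226, and 43 of 47 differences were above 0. Only 3 passed the test above 0 and 1 below, which is 8.51% against 1.62% of all genes. With the replicate block within each line 1 of the 47 was called, and with 1 array left out between 1 and 7. SLC7A5 (chr16:87863907-87863966, minus strand), the large neutral amino acid transporter, fell 3.26-fold in MM.1S from 3.24 and 3.54 to 1.72 and 1.66 and stood at 4.50 and 4.01 before and 4.36 and 4.33 after in RPMI-8226 (1.79 ± 0.27, adjusted p = 0.0423). PYCR1, an enzyme of proline synthesis, fell 3.17-fold from 5.43 and 5.45 to 3.95 and 3.60 in MM.1S with a change of −0.10 in RPMI-8226 (1.56 ± 0.20, adjusted p = 0.0264), and its second probe was called at 2.02. MTHFD2, a mitochondrial one-carbon enzyme, fell 2.34-fold in MM.1S (1.02 ± 0.16, adjusted p = 0.0462). The MTHFD2 call was lost with quantile normalization (adjusted p = 0.0568), the percentile over detected probes (0.0511) and no filter on dim probes (0.113). It was also lost with the replicate block within each line (0.104) or over both lines (0.0797). SLC7A5 and PYCR1 lost the call with no filter on dim probes (0.0946 and 0.0699) and with the block within each line (0.0818 and 0.0726). The called gene below 0 was VLDLR, a lipoprotein receptor, described below with the opposite changes. PSAT1, a serine synthesis enzyme, had one of the larger falls in MM.1S at −2.60, and its line difference of 1.97 ± 0.33 missed the threshold (adjusted p = 0.0578). SLC6A9, a glycine transporter, fell by 3.07 in MM.1S (2.66 ± 0.48, adjusted p = 0.0675), and ATF4 itself by 0.77 (0.77 ± 0.16, adjusted p = 0.0845). The TGATGNAA element of this response was in 5 of 39 promoters of the list (12.82%) and in 3.19% of all promoters.

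Further lists had median line differences above 0, smaller than that of the ATF4 list. All 40 ribosome biogenesis genes had a line difference above 0, with a median of 0.53. Of these, 23 fell in MM.1S (7.69% of all genes) and none in RPMI-8226 (0.332%), and 1 was called (2.5%, against 1.62% of all genes), with none called under the replicate block. That gene was MYBBP1A, a nucleolar MYB-binding protein, which fell 2.11-fold in MM.1S from 2.50 and 2.47 to 1.43 and 1.38 and was between 1.55 and 1.67 on the 4 RPMI-8226 arrays (1.06 ± 0.14, adjusted p = 0.0303). All 53 mitochondrial ribosomal protein genes were above 0 as well, with a median of 0.41, 14 falls in MM.1S and no call, MRPL12 being nearest at 0.85 ± 0.15 (adjusted p = 0.0602). The G1/S and DNA replication genes had a median of 0.39 with 12 of 55 falling in MM.1S, the G2 and mitosis genes 0.27 with 9 of 36, and the histone genes 0.33 with 18 of 76, where 7.69% of all genes fell. CDC25A, a phosphatase that opens S phase, fell by 0.89 in MM.1S (0.91 ± 0.23, adjusted p = 0.129). None of those 3 lists had a called member, nor did glycolysis, where HK2, a hexokinase, gave 1.16 ± 0.19 (adjusted p = 0.0542). SQLE, squalene epoxidase of cholesterol synthesis, was the 1 called gene of 30 in its list (3.33%, against 1.62% of all genes). SQLE fell 3.29-fold in MM.1S from 1.11 and 0.70 to −0.67 and −0.95, with RPMI-8226 at 3.80 and 3.62 before and 3.56 and 3.71 after (1.64 ± 0.26, adjusted p = 0.047). The SQLE call was lost with the percentile over detected probes (adjusted p = 0.0526) and no filter on dim probes (0.103). It was also lost with the replicate block within each line (0.0653) or over both lines (0.0553). The medians of these lists kept their sign under the 4 other scalings and with any 1 array left out, the ATF4 list ranging from 0.67 to 0.94 and ribosome biogenesis from 0.41 to 0.62.

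**Figure D4:**
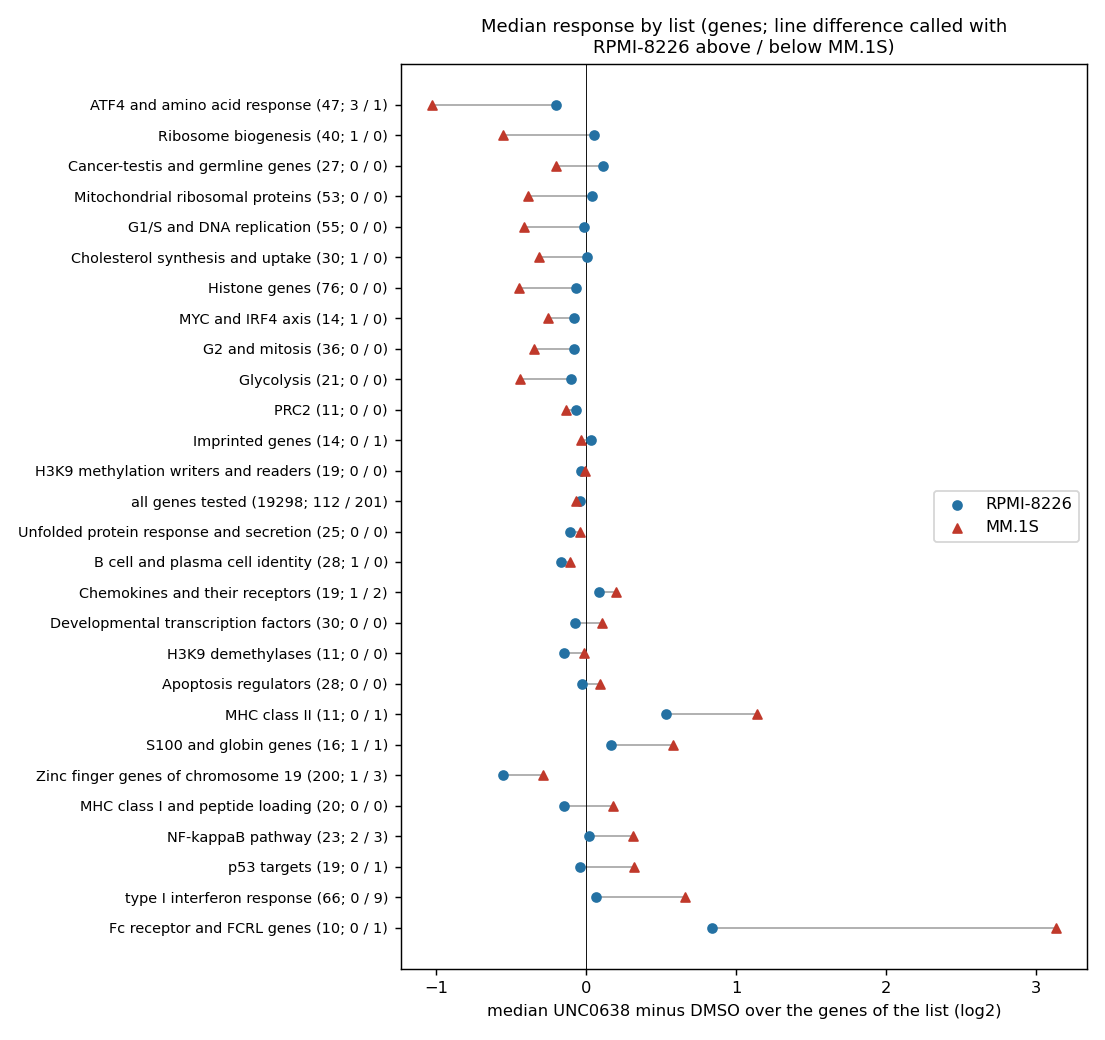
For each gene list, points give the median log2 change with UNC0638 in RPMI-8226 and in MM.1S. The ATF4 list (−0.20 and −1.03) and the ribosome biogenesis list (0.05 and −0.56) lie lower in MM.1S, and the Fc receptor list (0.84 and 3.14) and the interferon list (0.07 and 0.66) lie higher in MM.1S.

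Fewer genes responded in RPMI-8226 only, and most of them rose. SLAMF7 (chr1:160724402-160724461, plus strand), the myeloma surface antigen targeted by elotuzumab, was at −3.10 and −2.02 with DMSO and 0.46 and 0.47 with UNC0638 in RPMI-8226, an 8.17-fold rise. In MM.1S it was bright throughout, at 6.19 and 6.21 before and 5.83 and 5.76 after, and the line difference was 3.43 ± 0.46 (adjusted p = 0.0303). IL2RG (chrX:70327271-70327330, minus strand), the common γ chain of interleukin receptors, rose 7.03-fold in RPMI-8226 from −1.79 and −1.72 to 0.94 and 1.18 and was at 4.55 and 4.41 before and 4.83 and 4.81 after in MM.1S (2.48 ± 0.17, adjusted p = 0.00493). A second IL2RG probe was called at 3.48. CCL3, an inflammatory chemokine made by myeloma cells, rose 4.25-fold in RPMI-8226 from −2.64 and −1.84 to −0.13 and −0.17 against 8.34 and 8.31 before and 8.22 and 8.003 after in MM.1S (2.30 ± 0.36, adjusted p = 0.0471). For these 3 genes the treated RPMI-8226 arrays remained well below the MM.1S arrays.

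HBEGF, a ligand of the EGF receptor, was not well above background in RPMI-8226 with DMSO, at −6.71 and −6.42, and rose at least 1.75-fold to −3.45 and −3.51, with MM.1S at −4.30 and −4.04 before and −4.86 and −4.32 after, 1 of those 2 well above background (3.50 ± 0.30, adjusted p = 0.00879). GALNTL2 (current symbol GALNT15), a glycosyltransferase, rose at least 2.24-fold in RPMI-8226, and the 4 MM.1S arrays lay between −4.60 and −4.32 (2.60 ± 0.20, adjusted p = 0.00667). CD3D, a chain of the T cell receptor complex, rose 4.57-fold in RPMI-8226 from −2.59 and −2.70 to −0.35 and −0.56, with MM.1S at −3.23 and −4.01 before and −3.75 and −3.79 after (2.35 ± 0.36, adjusted p = 0.0435). CD3E and CD3G, the other chains tested, rose by a fitted log2 change of 3.34 and 4.56 in RPMI-8226 without a called line difference (adjusted p = 0.237 and 0.155), and CD3E also rose in MM.1S, by 2.20. In both lines CD3E started from a level not well above background. The summed level of the 6 kept of 7 T cell markers, in units of the 75th percentile, went from 0.81 on both arrays to 4.97 and 4.22 in RPMI-8226 and from 1.70 and 1.78 to 2.25 and 2.41 in MM.1S, with CD5 not kept. Whether other cells had a part in these values was not tested. CD8A, a T cell coreceptor in the same list, did not rise in RPMI-8226 (−0.46, adjusted p = 0.174).

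Among probes well above background in RPMI-8226 only, C6orf222 (current symbol BNIP5) rose at least 10.66-fold, from −6.41 and −5.12 to −0.69 and −1.05, and the 4 MM.1S arrays lay between −6.79 and −6.62 (4.92 ± 0.56, adjusted p = 0.02). CXorf51A, an X-linked gene, rose at least 4.51-fold from −6.40 and −6.18 to −2.23 and −1.999, with MM.1S again flat and dim (4.21 ± 0.19, adjusted p = 0.00208). TBX15, a developmental T-box factor, rose at least 6.96-fold, and GC, the vitamin D binding protein, at least 2.12-fold (3.45 ± 0.42 and 3.36 ± 0.37, adjusted p = 0.0244 and 0.0188). KIR2DS2, an activating killer cell receptor, rose at least 4.55-fold in RPMI-8226 and stayed below background in MM.1S, where its fitted change among dim values, 1.41, also passed (adjusted p = 0.0405). It was thus called in both lines with a different size (3.001 ± 0.45, adjusted p = 0.0423), but KIR genes are near-identical copies and the probe's target is uncertain. Among the genes that fell in RPMI-8226, ZNF284 went from −2.02 and −1.60 to −3.80 and −3.65, a 3.76-fold fall, with MM.1S between −3.74 and −3.25 (−2.20 ± 0.26, adjusted p = 0.0224). It belongs to the zinc finger genes of chromosome 19, listed by a symbol starting with ZNF. Their 200 kept members had a median difference of −0.22, with 16 falling in RPMI-8226 (0.332% of all genes) and 36 falling and 2 rising in MM.1S (7.69% and 6.11%). The 4 called genes of the list (2%) were near the share of all genes (1.62%), and 1 was called under the replicate block. ZNF284, ZNF461 (−2.94 ± 0.44) and ZNF790 (−1.65 ± 0.26) were below 0. For ZNF461 and ZNF790 the RPMI-8226 changes of −1.59 and −0.89 did not pass (adjusted p = 0.0961 and 0.104), and the changes that passed were 1.36 and 0.76 in MM.1S among values not well above background (adjusted p = 0.0429 and 0.0462). ZNF264 was above 0, falling 2.52-fold in MM.1S (1.20 ± 0.14, adjusted p = 0.0212). The δ-globin gene HBD rose in both lines, at least 1.35-fold in RPMI-8226 and 2.73-fold in MM.1S, with a line difference of 1.18 ± 0.16 (adjusted p = 0.032) that turned to −1.08 under normexp background correction.

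Opposite responses were rare and mostly dim. Of the 8 probes called with opposite changes, 2 were measured in both lines. One was AGBL4 (chr1:48998527-48998586, minus strand), a deglutamylase, which went from −4.46 and −4.42 to −3.34 and −3.58 in RPMI-8226, at least 1.77-fold higher, and from −3.69 and −3.74 to −4.54 and −4.62 in MM.1S, at least 1.82-fold lower (1.85 ± 0.17, adjusted p = 0.00948). On the second set of arrays its line difference had the other sign, −0.93 ± 0.70. The other was a probe of DPY19L2P3 (chr7:29781923-29781982, plus strand), a pseudogene of the DPY19L2 family, whose copies may share its target, and it is named here after its values were seen. It went from 0.49 and 0.47 to −0.12 and −0.19 in RPMI-8226, a fall, and from −3.16 on both arrays to −2.53 on both in MM.1S, a rise. The log2 changes of DPY19L2P3 were −0.64 and 0.63, and the line difference was −1.26 ± 0.13 (adjusted p = 0.0152). On the second set it gave −1.09 (adjusted p = 0.0567), the same sign. Of the opposite changes this probe was the 1 measured on both sides without a bound. Another kept probe of DPY19L2P3 was brighter over the 8 arrays and was not called with opposite changes.

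The remaining 6 were well above background in 1 line. SIGLEC6, a sialic acid-binding receptor, rose 3.12-fold in MM.1S from −4.39 and −4.35 to −2.78 and −2.67. In RPMI-8226 it went from −4.12 and −4.26, with 1 of 2 arrays well above background, to −6.03 and −6.14, at least 1.17-fold lower (line difference −3.54 ± 0.16, adjusted p = 0.00208). Its groups did not overlap in either line. The second set gave a line difference of −2.47 ± 0.95 that did not pass (adjusted p = 0.272). There SIGLEC6 rose by 2.61 in MM.1S (adjusted p = 0.0493), and its change in RPMI-8226 was 0.14 (adjusted p = 0.925), not a fall. VLDLR, HOTAIRM1 (a noncoding RNA of the HOXA cluster) and RHCG (an ammonia transporter) rose in MM.1S by 0.96, 0.81 and 0.63 on the log2 scale, and their RPMI-8226 changes of −1.39, −1.08 and −1.20 lay among values not well above background on all 4 arrays. Their line differences were −2.35 ± 0.15, −1.89 ± 0.17 and −1.83 ± 0.18 (adjusted p = 0.00436, 0.0105 and 0.0129). FAM90A10, a member of a multigene family of near-identical copies, rose at least 1.26-fold in RPMI-8226 and was not well above background in MM.1S (3.88 ± 0.38, adjusted p = 0.0129). The last probe has no gene symbol. The count of 8 moved to 52 without RPMI-8226 DMSO replicate 1, to 31 without replicate 2, and to 1 or 2 without any 1 of the other 6 arrays.

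No line difference was called for the listed genes that write, read and remove the H3K9 mark. EHMT2 was at 1.27 and 0.91 before and 1.01 and 0.99 after in RPMI-8226 and at 0.56 and 0.41 before and 0.21 and 0.28 after in MM.1S, a line difference of 0.14 ± 0.21 (adjusted p = 0.745). EHMT1 gave −0.05 ± 0.13 (adjusted p = 0.866). UNC0638 acts on the protein, so these levels do not report whether the enzyme was inhibited. Of 19 H3K9 writers and readers, 11 H3K9 demethylases and 11 PRC2 genes, none was called, where 1.62% of all genes were. At that share, lists of these sizes would hold few calls or none. The largest difference of each list was UHRF1 at 0.69 ± 0.20, JMJD1C at −0.54 ± 0.21 and PHF1 at −0.58 ± 0.21. EZH2, the methyltransferase of PRC2, fell by 0.49 in MM.1S (adjusted p = 0.0305) and its line difference was 0.30 ± 0.14 (adjusted p = 0.312). No member was called among 20 MHC class I genes, 28 apoptosis regulators, 25 unfolded protein response genes, 27 cancer-testis and germline genes or 30 developmental factors. These lists do not hold ACTL8 and TBX15, and at the 1.62% share of all genes they too would hold few calls or none. Genes with a large but uncertain difference were the apoptosis activators HRK (2.71 ± 0.70, adjusted p = 0.13) and BMF (−1.29 ± 0.28, adjusted p = 0.0946). PRDM1 and KLF2, transcription factors of plasma cells, had line differences of 0.31 ± 0.23 and 0.45 ± 0.76 (adjusted p = 0.511 and 0.788). The myeloid markers had a summed level of 0.49 to 0.93 in RPMI-8226 and 0.19 to 0.38 in MM.1S, with LYZ, MPO and FCGR1A not kept. The fibroblast and epithelial markers, without COL1A1, COL1A2, COL3A1 and KRT19, which were not kept, ran from 69.6 to 96.2 in RPMI-8226 and from 0.78 to 1.19 in MM.1S, where EPCAM was the called member.

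The second set of arrays asked a related question with GSK126 present in all groups, as the change from GSK126 to GSK126 + UNC0638, and shares no array with the first. Both sets lay on the same slides. Replicates with the same number deviated together across the sets (DMSO with GSK126, r = 0.342 in RPMI-8226 and 0.126 in MM.1S). The sets are therefore not fully independent. There the line difference was called for 236 of 25827 probes (0.914%). Of the 389 probes called on the first set, 360 had the same sign on the second (92.54%), against 70.97% of all probes kept, and 80 were called there in the same direction (20.57%), against 0.87% of all. One was called in the opposite direction. Their median difference was 2.05 on the first set and 1.45 on the second. Among the 164 called probes measured in both lines, 158 kept the sign (96.34%) and 27 were called (16.46%). Genes called on both sets included LAMB3 (−3.54 ± 0.37), FAM159A (−4.08 ± 0.27), NRCAM (−3.66 ± 0.29), CFTR (−5.13 ± 0.71), KIF6 (−6.19 ± 0.68), CMPK2 (−2.11 ± 0.25), HLA-DOB (−2.54 ± 0.29), S100A6 (−2.82 ± 0.42), SLAMF7 (4.40 ± 0.43), IL2RG (2.96 ± 0.24), ACTL8 (2.90 ± 0.30) and FAM90A10 (2.71 ± 0.28).

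DDX60 was far smaller on the second set, at −0.38 ± 0.43, and there GSK126 alone already gave MM.1S levels of −3.85 and −4.11, against −7.04 and −6.81 with DMSO. Adding UNC0638 to GSK126 still raised DDX60 by 2.61 in MM.1S (adjusted p = 0.00862), and it raised it by 2.24 in RPMI-8226 (adjusted p = 0.0198), where UNC0638 against DMSO had given −0.07. The line difference of DDX60L was −0.24 ± 0.71 on the second set, with 2.29 in MM.1S (adjusted p = 0.0341) and 2.05 in RPMI-8226, which did not pass (adjusted p = 0.0948). The interferon list as a whole had a median of −0.28 on the second set with 48 of 66 differences below 0, against −0.39 and 56 of 66 on the first. GRB10 gave 0.14 ± 0.53 on the second set, and VLDLR, HOTAIRM1 and RHCG gave −0.43 ± 0.52, −0.46 ± 0.35 and −0.04 ± 0.42. No test of the change between the sets was run.

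**Figure D5:**
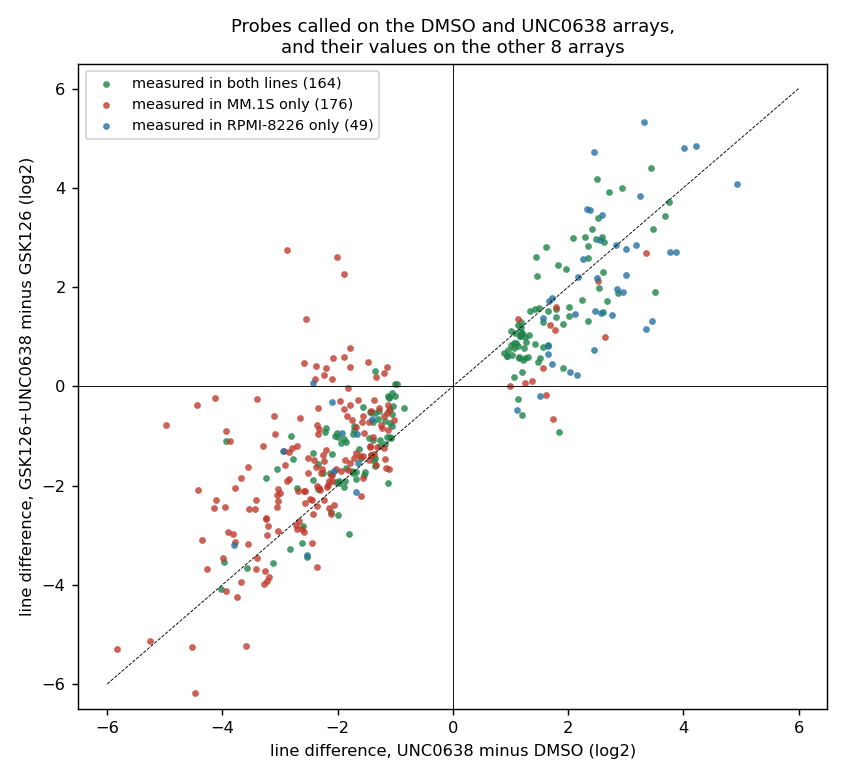
Each point is a probe called on the DMSO and UNC0638 arrays, placed by its line difference there (horizontal axis, log2) and by its line difference on the GSK126 and GSK126 + UNC0638 arrays (vertical axis, log2). Most of the 389 points, 360, lie in the quadrants of equal sign, and the points of the other sign are mainly probes measured in MM.1S only.

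Among the 57 named genes with a called line difference, 27 kept the call with the replicate block of each line, 41 with a block over both lines, and all 57 with the deposited series table in place of the scanner files. LAMB3, IL2RG, ZMAT3, FAM159A, EMR2, HBEGF, CFTR, DDX60, SIGLEC6 and VLDLR kept it under every alternative run on them, the blocks and each left-out array included. Others lost it with at least 1 setting. With 1 array left out, the named calls kept were 54 and 40 without RPMI-8226 DMSO replicate 1 or 2, 21 and 23 without RPMI-8226 UNC0638 replicate 1 or 2, 22 without either MM.1S DMSO array, and 29 and 21 without MM.1S UNC0638 replicate 1 or 2. No named call changed sign with an array left out. With normexp background correction 42 of the 57 calls were kept, HBD reversed, and NRCAM, FCGBP, BMPR2, EPCAM, GALNTL2, FAM167A, FAM90A10, AGBL4, RHCG, KIR2DS2, GC, CXCL13, ZNF461 and ZNF790 lost the call. Further second probes that were not called gave 1.82 for ACTL8, 0.51 for FAM167A, −2.11 for CD40 and −0.53 for ZNF461.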

How the data were processed

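RNA of 16 samples was labelled with Cy3 and hybridised to 1-color Agilent SurePrint G3 Human GE v2 arrays. The authors scanned the arrays with Agilent Feature Extraction (version 10.7 per the labels), which subtracts background and detrends, and deposited 1 file of linear spot intensity per array together with a series table of the same intensities rounded to 3 significant digits. The arrays were not normalized against each other in the deposited files. Probe positions are those of GRCh37 per the file headers.

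From the deposited intensity, the log2 of the processed signal minus the array's 75th percentile over non-control spots was taken, flagged outlier spots were left out, and spots of a probe were averaged. This moves all probes of an array together, so a change is relative to the 75th percentile. Probes were kept where some group had both arrays well above background, of which 4 lacked a value on some array and were fitted on the others. A list's gene was represented by its kept probe with the highest mean. Where neither array of a group was well above background, the change is given as at least N-fold, the bright group's mean over the higher, on each array, of the lowest signal well above background and the probe's own.

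A model of 4 group means over 8 arrays was fitted with limma 3.58.1 in R 4.3.3 (4 residual and 2.067 prior degrees of freedom), two-sided, with Benjamini-Hochberg adjustment over the 25827 probes at 0.05. The GSK126 and GSK126 + UNC0638 arrays were fitted apart in the same way (2.385 prior degrees of freedom). On simulated data of 25821 probes with 200 changed, the test of the line difference recovered 8% of differences of 1 and 55% of differences of 2 on the log2 scale, with 4 false among 67 calls.

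Replicates with the same number deviated together in RPMI-8226 (r = 0.291 between DMSO and UNC0638) and less in MM.1S (r = 0.0747) and between the lines with DMSO (r = 0.0361), so the replicate number was left out of the fit, and fits with it as a block are given beside the counts. The genes named were the 8 with the largest line difference in each direction measured in both lines, the 5 largest of each direction for opposite changes and of each line for probes measured in 1 line, up to 4 called or 2 uncalled members per list, and genes the study follows. The lists and the members were chosen with earlier results of these data known. XIST and Y-linked genes were not named. Alternatives covered normalization, background correction, filters, prior variance, arrays in the fit, blocks and left-out arrays. Promoters came from RefSeq (GRCh38.p14), and 20663 kept probes carried a current RefSeq symbol.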

Additional observations from a re-analysis of the deposited data

Results flagged for a closer look

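The change with UNC0638 differed between RPMI-8226 and MM.1S, by limma's test of the difference itself, for 57 of the named genes, given here with the log2 change in RPMI-8226 minus that in MM.1S. Antiviral genes that rose in MM.1S were RSAD2 (−3.82), TRIM22 (−3.22), CMPK2 (−2.58), PARP9 (−2.43), DDX60 (−4.44) and DDX60L (−4.13). Surface, signaling and other genes that rose in MM.1S were FAM159A (−4.02), LAMB3 (−3.97), NRCAM (−3.57), CEACAM1 (−3.24), CX3CR1 (−3.06), FCGBP (−2.82), BMPR2 (−2.81), FCRL5 (−2.78), HLA-DOB (−2.11), TRAF1 (−2.10), CD40 (−2.66), ZMAT3 (−2.35), S100A6 (−2.60), GRB10 (−2.11), CXCL13 (−2.38), CXCR5 (−1.56), CFTR (−5.26) and KIF6 (−4.48). Genes that fell in MM.1S were EPCAM (3.68), EMR2 (2.87), ACTL8 (2.62), FAM167A (2.59), JUN (2.67), MYC (1.19), SLC7A5 (1.79), PYCR1 (1.56), MTHFD2 (1.02), SQLE (1.64), MYBBP1A (1.06) and ZNF264 (1.20). Genes that rose in RPMI-8226, HBD and KIR2DS2 in both lines, were SLAMF7 (3.43), IL2RG (2.48), HBEGF (3.50), CCL3 (2.30), CD3D (2.35), GALNTL2 (2.60), C6orf222 (4.92), TBX15 (3.45), KIR2DS2 (3.001), CXorf51A (4.21), GC (3.36) and HBD (1.18). Genes with opposite changes, or with a lower value in RPMI-8226 and a higher or dim one in MM.1S, were FAM90A10 (3.88), AGBL4 (1.85), SIGLEC6 (−3.54), VLDLR (−2.35), HOTAIRM1 (−1.89), RHCG (−1.83), ZNF461 (−2.94), ZNF284 (−2.20) and ZNF790 (−1.65). Over all 389 called probes the median size was 2.05.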

How the results depend on the processing

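The count of 389 probes with a line difference was within 1.5 times under quantile normalization, the other percentile, the series table, a replicate block over both lines (266), the mean over a gene's probes and a minimum difference of 1. It was 1091 with normexp background correction, 161 with no filter on dim probes, 149 with probes above background on all 8 arrays, 167 with probes measured in both lines, 184 with a replicate block within each line, 1006 with an intensity-dependent prior variance and 773 with all 16 arrays in 1 fit. It ranged from 112 to 1109 with 1 array left out. For probes called in RPMI-8226 only (75) the same settings gave 119 with normexp, 29 with no filter, 18 on all 8 arrays, 29 in both lines, and 33 and 46 with the replicate block within each line and over both lines, and 18 to 205 with 1 array left out. For MM.1S only (292) they gave 908 with normexp, 128 with no filter, 125 on all 8 arrays and 125 in both lines, 144 with the replicate block within each line, 849 with the intensity-dependent variance and 612 with all 16 arrays, and 79 to 754 with 1 array left out. For opposite changes (8) they gave 2 with no filter, 4 on all 8 arrays, 5 in both lines and 14 with all 16 arrays, and 1 to 52 with 1 array left out. For the arrays with GSK126 (236) they gave 731 with normexp, 28 on all 8 arrays, 57 in both lines, 65 and 132 with the replicate block within each line and over both, 356 with the intensity-dependent variance and 858 with all 16 arrays, and 10 (without MM.1S GSK126 + UNC0638 replicate 2) to 308 with 1 array left out. The filters test fewer or more probes, and the cause of the other shifts was not tested.

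Of the called probes, 33.7% were above 0, against 40.7% with normexp, 42.4% with quantile normalization, 25.9% with the percentile over detected probes and 58.5% with the intensity-dependent variance. Of the 389 probes, 252 were called with normexp and 306 with quantile normalization. Over the processing alternatives, the 57 named calls gave 565 values, of which 445 kept the call, 119 kept the direction without the call and 1 reversed, HBD at −1.08 with normexp. Among 44 named genes not called, 37 of 463 such values passed. With 1 array left out, direction turned for ERV3-1 (−0.0041 to 1.55), EHMT2 (−0.0359 to 0.3258), OAS3 (−1.134 to 0.6198) and KLF2 (−0.2223 to 1.128), none of them called. A slide block was not run because each slide held 1 line.

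With 2 arrays per group, a line difference of 1 on the log2 scale would mostly be missed, so genes not called are not shown to respond alike. For probes dim in a line, the change there is a bound or unmeasured.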
